A study of Mus musculus with 10 samples.

Results

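The genes described here encode the factors that start, elongate and end protein synthesis on cytosolic ribosomes. They were taken from the expression table by name: every gene whose symbol begins with Eif1 to Eif6, Eef1 or Eef2, together with the release factor genes Etf1, Gspt1 and Gspt2. The names matched 76 of 48440 genes, 7 of which are named as pseudogenes and were dropped, which left 69. The study compared inner hair cells (IHCs), which pass sound information to the auditory nerve, with outer hair cells (OHCs), which amplify sound by changing length. Both were picked one by one with a suction pipette, by their shape, from the dissociated organ of Corti of CBA/J mice aged 28 to 32 days that had received no treatment, and about 1000 cells were pooled into each library. There were 2 IHC libraries and 3 OHC libraries. The paper lists 2 technical replicates of each, which are called lanes here. Their values were averaged, so n is 2 and 3 throughout. Cells of both groups came from the same strain and age, and each library pools the cells of several mice. The paper describes both cell types as collected from each mouse, so the groups may share animals. The main test does not take this into account.

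Translation begins when eIF2 carries the initiator tRNA to the small ribosomal subunit, eIF3 holds that subunit, and the eIF4 proteins bring it to the cap of the mRNA. eIF1, eIF1A and eIF5 then help to select the start codon, eIF5B joins the large subunit, eEF1A and eEF2 drive elongation, and eRF1 and eRF3, the products of Etf1 and Gspt1, release the finished chain. Cells set the rate mainly at a pair of steps. In the first, stress kinases phosphorylate eIF2. The second is the capture of the cap-binding protein eIF4E by the 4E-BP proteins, which the kinase mTORC1 prevents. Many mRNAs of the translation machinery begin with a C followed by a run of C and T bases, the terminal oligopyrimidine tract, through which mTORC1 and LARP1 control their use. Translation factor mRNAs are found in nearly all cells, so their presence does not mark a hair cell.

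The start sites of 6 genes are printed because their windows hold such tracts. They were chosen after their values were seen, to show marked tracts of 8 to 15 bases and both directions of difference. RefSeq start windows of the mouse build GRCm38.p6 were matched for 52 of the 69 genes, with 67 windows in all. A tract was counted where a C lay between 5 bases before and 5 bases after the annotated start, on the strand of the gene only, and was followed by at least 4 letters that are C or T. Each line gives 15 bases before the start and 15 from it, 5′ to 3′, with the tract in capitals.
Eif3f (chr7:108934400-108934429, plus strand): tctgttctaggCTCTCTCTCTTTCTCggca
Eif3l (chr15:79075208-79075237, plus strand): gcgcggagttCTTCTTCCgctctctcccac
Eif2s3x (chrX:94212637-94212666, minus strand): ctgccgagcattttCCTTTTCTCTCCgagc
Eif2s3y (chrY:1010580-1010609, plus strand): gcggaggccacagccaCTTCCTTCTTTCgt
Eif2b5 (chr16:20498802-20498831, plus strand): ccttcctctttCTCTCCCTgcaactacacc
Eef1a1 (chr9:78481710-78481739, minus strand): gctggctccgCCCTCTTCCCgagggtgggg

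Among these 6 windows Eif3f had the longest tract as counted, 15 bases, and Eif2s3x and Eif2s3y had tracts of 12 bases each. A tract was counted only from the first fitting C inside the searched positions. In Eif3l, Eif2s3x and Eif2b5 more C or T bases precede the marked tract, and the whole run of Eif2b5 is longer than the tract of Eif3f. Of all member windows, 17 of 67 (25.4%) held a tract, against 6027 of 32851 windows in the whole reference (18.3%). By gene, 15 of 52 members (28.8%) had at least 1 window with a tract, against 21.2% of 27025 genes. The calls given in the following paragraphs fell on both sides. Of 14 members with a tract that were tested, 8 passed towards IHCs and 4 towards OHCs, and of 36 matched members without a tract, 23 were higher in IHCs and 5 in OHCs. Beside these, 34.4% of all genes tested passed in each direction. A tract in an annotated window is a match of letters and does not show where transcription started in these cells.

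Levels are in RPKM, reads scaled to the length of the gene and to the mapped reads of the lane. Read totals recovered from the values were 19987044 to 23083994 per library. Markers of each hair cell type fitted the labels: 4 IHC markers, Slc17a8 among them, summed to 180 to 182 RPKM in IHC libraries and 6.30 to 6.94 RPKM in OHC libraries, while 5 OHC markers, Slc26a5 and Ocm among them, summed to 417 to 437 RPKM in IHC libraries and 13645 to 14492 RPKM in OHC libraries. Markers of other cells also differed. Of 41 such genes tested, 10 were higher in IHCs and 25 in OHCs, beside 34.4% of all genes in each direction. Haemoglobin and other red cell genes summed to 343 to 356 RPKM in IHC libraries and 1552 to 1666 RPKM in OHC libraries, and neutrophil and macrophage genes summed to 2.41 to 2.98 RPKM in IHC libraries and 90.5 to 93.8 RPKM in OHC libraries. Of these 9 neutrophil and macrophage genes, 6 were higher in OHCs and 1 in IHCs. Fibrocyte genes summed to 162 to 165 RPKM in IHC libraries and 355 to 384 RPKM in OHC libraries, with 4 of 7 higher in OHCs and 1 in IHCs. Supporting cell genes, in contrast, summed to 1053 to 1054 RPKM in IHC libraries and 709 to 714 RPKM in OHC libraries, but only 5 of the 8 were higher in IHCs, and Fgfr3, Otog and S100b were higher in OHCs. Genes of glia and neurons summed to 66.5 to 69.8 RPKM in IHC libraries and 25.9 to 28.4 RPKM in OHC libraries, with 3 of 8, Sox10, Nefl and Nefm, higher in IHCs and 2, Mbp and Tubb3, higher in OHCs. Stria vascularis genes summed to 19.99 to 20.31 RPKM in IHC libraries and 35.04 to 36.09 RPKM in OHC libraries, and endothelial genes to 0 to 0.0737 RPKM in IHC libraries and 0.186 to 0.326 RPKM in OHC libraries. The macrophage marker Cx3cr1 and the neuronal marker Prph were at 0 in every library. Translation factors are expressed in all these cells too, and the part of these cells in the differences given here was not tested.

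Summed over the 69 genes, translation factor mRNA was higher in IHCs. Their summed level was 2653 and 2669 RPKM in the IHC libraries, and 2123, 2115 and 2119 RPKM in the OHC libraries. The groups did not overlap, and the sum was 1.26-fold higher in IHCs. As a share of all RPKM in a library the genes took 0.675% and 0.671% in IHCs, and 0.577%, 0.579% and 0.582% in OHCs. In pooled cells, more RNA of a gene per cell and more cells that carry it cannot be told apart.

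Of the 69 genes, 66 reached at least 0.1 RPKM in at least 2 libraries and were tested with limma among 16462 genes. At an adjusted p under 0.05, 41 of the 66 (62.1%) were higher in IHCs, 13 (19.7%) were higher in OHCs and 12 did not pass. Among all 16462 genes the test called 34.4% towards IHCs and 34.4% towards OHCs, so that the factor genes leaned to the IHC side. Their median log2 difference, IHC minus OHC, was 0.29, against -0.01 over all genes tested. These differences were small for the most part: 25 of the 41 genes higher in IHCs and 9 of the 13 higher in OHCs differed by less than 0.5 on the log2 scale. In each direction 2 genes differed at least 2-fold, Eif3f and Eif5a2 towards IHCs, Eif4ebp1 and Eif4e3 towards OHCs. Standard errors of the called differences were 0.03 to 0.18 on the log2 scale.

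**Figure D1:**
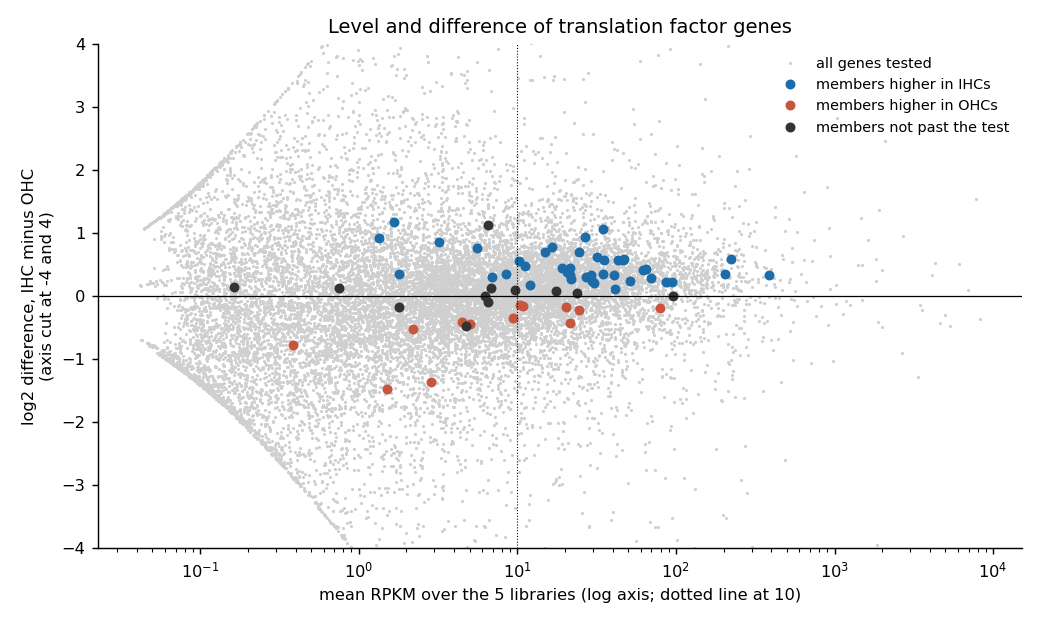
Mean RPKM over the 5 libraries (horizontal, log axis) against the log2 difference IHC minus OHC (vertical) for the 66 translation factor genes tested, over all 16462 genes in grey. Most members to the right of the dotted line at 10 RPKM lie above 0 (34 of 43 called higher in IHCs), while those to its left lie on both sides (7 called in each direction of 23).

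The factor genes are well expressed, and this bears on the comparison with all genes. The median level of the 66 was 20.4 RPKM, against 3.14 RPKM over all genes tested, and 43 of them (65.2%) had a mean of at least 10 RPKM, which 28.8% of all genes reached. Among the 43, 34 (79.1%) were higher in IHCs and 6 (13.95%) in OHCs. Of all 4736 genes at this level, 52.3% passed towards IHCs and 29.1% towards OHCs. The median log2 difference was 0.33 for these 43 factor genes and 0.17 for all genes at this level. Among the 23 members under 10 RPKM, 7 were higher in IHCs and 7 in OHCs, which is 30.4% each way, while of all 11726 genes under 10 RPKM 27.2% were higher in IHCs and 36.6% in OHCs. Above 10 RPKM the members' share of IHC calls thus exceeded that of all genes, and below it both shares were near those of all genes. This split by level was added after the values were seen and the contrast between the levels was not tested.

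Many translation factors have processed pseudogenes of nearly the same sequence, between which reads may have been divided. Of the 66 genes tested, 25 shared at least 10% of their 31-base words with other annotated genes, and 18 of these were higher in IHCs and 3 in OHCs. The other 41 shared less, and 23 of them were higher in IHCs and 10 in OHCs, with a median log2 difference of 0.22. Beside both sets, 34.4% of all genes tested passed in each direction. At 10 RPKM or more, 52.3% of all genes passed towards IHCs and 29.1% towards OHCs. The highest shares among members averaging 10 RPKM or more were 51.5% for Eef1a1, 47.6% for Eef1g, 40.2% for Eif3d, 35.6% for Eif2s3x, 31.2% for Eif4a3 and 31.1% for Eif4a1, whose levels are less certain for that reason. The 7 dropped pseudogenes were at 1.81 RPKM or less in every library.

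**Figure D2:**
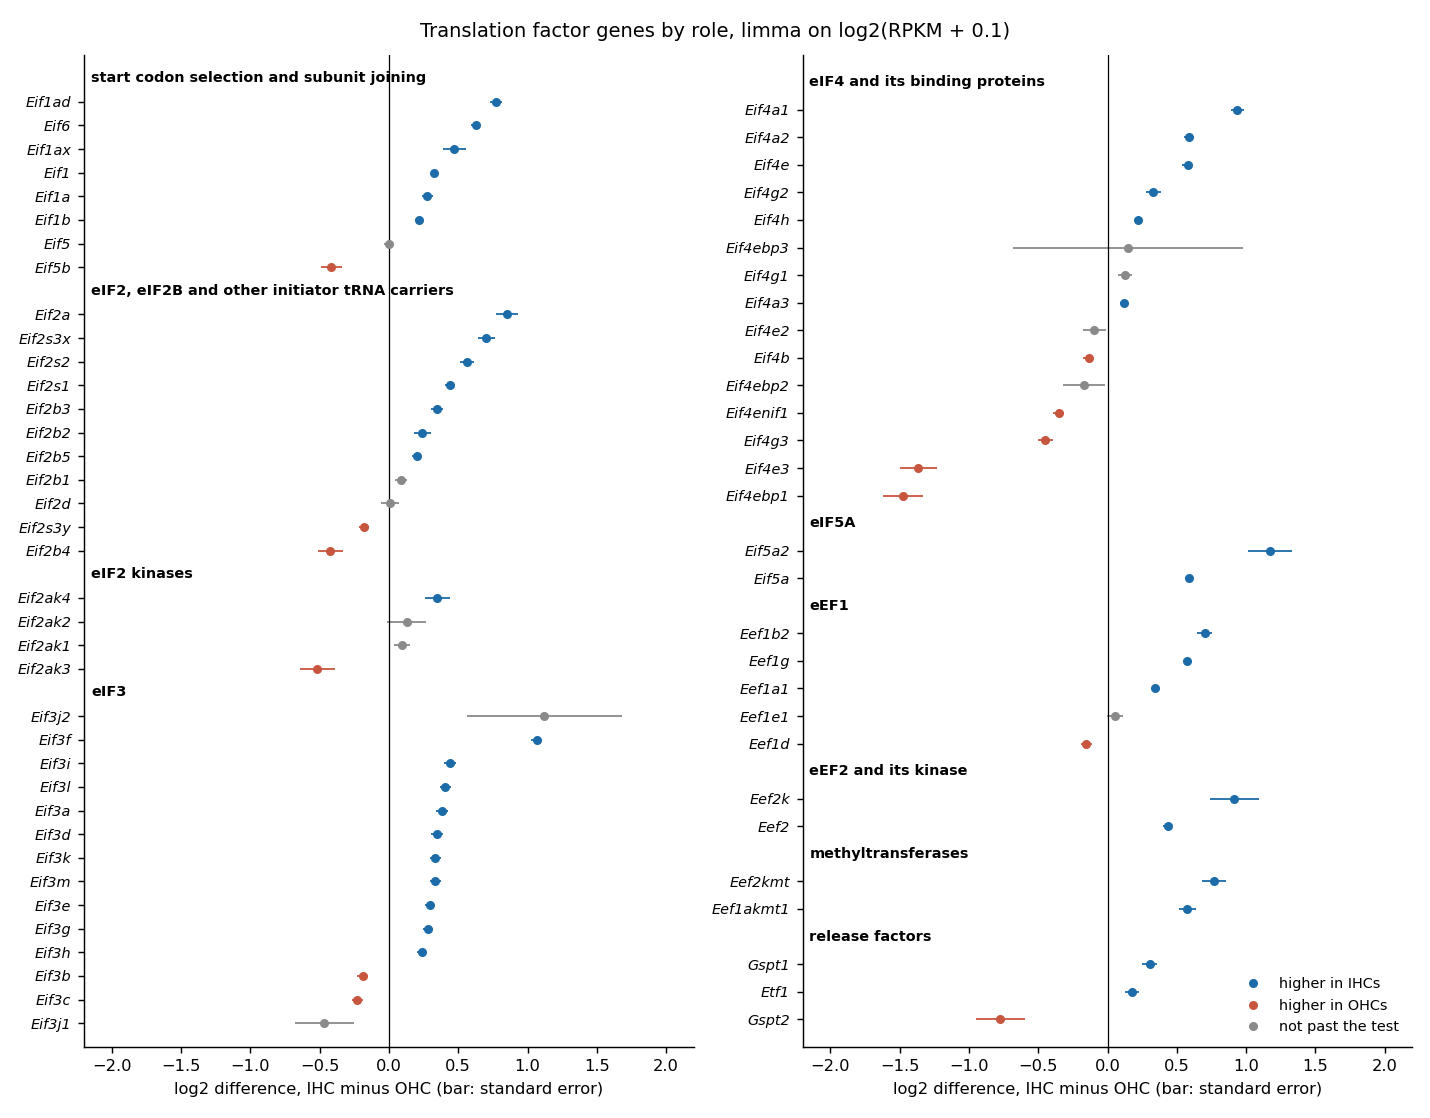
Log2 difference IHC minus OHC with its standard error for each tested gene, grouped by role, with genes higher in IHCs in blue, higher in OHCs in red and not past the test in grey. Most points of eIF3 lie between 0.2 and 0.5 with Eif3f apart at 1.07, while those of the eIF4 group spread over both directions.

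The factors of start codon selection and subunit joining included the most abundant member. Eif1, which keeps the scanning ribosome from starting at wrong codons, was at 432 and 442 RPKM in IHCs, and at 353, 349 and 343 RPKM in OHCs. It ranked 89 among all genes tested by its mean and was higher in IHCs by 0.33 on the log2 scale (SE 0.03, adjusted p = 0.000153). Of the 8 genes of this role 6 (75.0%) were higher in IHCs, 1 (12.5%) was higher in OHCs and 1 did not pass, with a median log2 difference of 0.30. Of all genes tested 34.4% passed in each direction. Every gene of this role except Eif5b averaged at least 10 RPKM, where 52.3% of all genes passed towards IHCs and 29.1% towards OHCs. Eif1ad, which encodes a relative of eIF1A, was at 21.6 and 22.4 RPKM in IHCs and 13.2, 12.6 and 12.7 RPKM in OHCs (log2 difference 0.77, SE 0.04). Eif6, which holds the large subunit apart from the small one, was at 40.2 and 40.9 RPKM in IHCs and 27.0, 26.0 and 25.7 RPKM in OHCs (0.63, SE 0.03). The IHC libraries lay above all OHC libraries for both genes.

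Eif1ax, 1 of the genes for eIF1A, averaged 13.5 ± 0.614 RPKM in IHCs and 9.74 ± 0.885 RPKM in OHCs (SD, n = 2 and 3), a log2 difference of 0.47. Eif1b, a close relative of Eif1, was at 102 and 105 RPKM in IHCs and 87.7, 90.1 and 89.4 RPKM in OHCs, a log2 difference of 0.22. This call was lost under quantile normalization (0.03, adjusted p = 0.287) and after rescaling without mitochondrial genes (0.07, adjusted p = 0.0887). Eif5 and Eif5b were the exceptions in this role. Eif5, the GTPase activator of eIF2, averaged 95.2 ± 0.145 RPKM in IHCs and 95.3 ± 2.43 RPKM in OHCs, and the groups overlapped (adjusted p = 0.955). After every library was rescaled to the same sum, it was lower in IHCs by the test (log2 difference -0.11). Eif5b, the GTPase that joins the subunits, was at 3.49 and 3.91 RPKM in IHCs and 5.06, 4.78 and 5.05 RPKM in OHCs, and so was lower in IHCs (-0.41, SE 0.07, adjusted p = 0.00363). It shared 16.1% of its words with other genes, Rev1 among them.

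eIF2 is built of the subunits alpha (Eif2s1), beta (Eif2s2) and gamma, and the gamma subunit is encoded both on the X chromosome, by Eif2s3x, and on the Y chromosome, by Eif2s3y. Of these 4 genes all except Eif2s3y were higher in IHCs. Eif2s1 averaged 25.6 ± 0.633 RPKM in IHCs and 18.8 ± 0.320 RPKM in OHCs (log2 difference 0.44), and Eif2s2 averaged 12.7 ± 0.146 RPKM in IHCs and 8.58 ± 0.345 RPKM in OHCs (0.56). Eif2s3x was at 19.8 and 19.0 RPKM in IHCs, and at 11.1, 12.6 and 12.1 RPKM in OHCs (0.70, SE 0.06, adjusted p = 0.000212). Eif2s3y went the other way, with 18.7 and 18.7 RPKM in IHCs, and 21.0, 20.8 and 21.9 RPKM in OHCs (-0.18, SE 0.04, adjusted p = 0.00701). The groups overlapped for neither gene.

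By RPKM over the 4 genes, the Y copy made up 24.5% and 24.4% of the eIF2 mRNA in IHCs, and 35.4%, 34.1% and 35.6% in OHCs. Within a library the ratio of Eif2s3y to Eif2s3x was 0.944 and 0.984 in IHCs, and 1.89, 1.65 and 1.81 in OHCs. The summed level of both copies was 38.6 and 37.7 RPKM in IHCs, and 32.0, 33.3 and 34.0 RPKM in OHCs, 1.15-fold higher in IHCs. Other sex-linked genes were looked at after these values were seen. The Y-linked genes Ddx3y and Uty were higher in IHCs, at 17.1 ± 0.0613 RPKM against 13.9 ± 0.340 RPKM in OHCs for Ddx3y, and at 4.05 ± 0.0453 RPKM against 3.14 ± 0.127 RPKM in OHCs for Uty. Kdm5d did not pass the test (adjusted p = 0.139). Xist, which is made from the inactive X of female cells, was at 0.0121 RPKM or less in all 5 libraries. Eif2s3x shared 35.6% of its words with other genes, mainly pseudogenes, and Eif2s3y 0.448%.

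eIF2B is the exchange factor that returns eIF2 to its active form, and mutations of its subunits cause a disease of the white matter in people. Of its 5 genes, Eif2b2, Eif2b3 and Eif2b5 were higher in IHCs by 0.24, 0.35 and 0.20 on the log2 scale, Eif2b1 did not pass (0.09, adjusted p = 0.126), and Eif2b4 was lower in IHCs. Eif2b4 was at 19.3 and 16.3 RPKM in IHCs, and at 22.2, 25.3 and 23.9 RPKM in OHCs (-0.42, SE 0.09, adjusted p = 0.00698). It made up 17.2% and 14.8% of the summed eIF2B mRNA in IHCs, and 21.1%, 24.4% and 22.8% in OHCs. The most abundant subunit, Eif2b5, which carries the catalytic site, averaged 33.0 ± 0.348 RPKM in IHCs and 28.7 ± 0.302 RPKM in OHCs. Its difference, like that of Eif2b2, did not pass the test once the libraries were rescaled to the same sum, and that of Eif2b2 did not pass without IHC replicate 1 or without IHC replicate 2.

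Other genes of this group bind the initiator tRNA or related tRNAs outside eIF2. Eif2a, an alternative carrier that is not a subunit of eIF2, was at 4.32 and 4.52 RPKM in IHCs and 2.53, 2.26 and 2.45 RPKM in OHCs, a log2 difference of 0.85 (SE 0.08, adjusted p = 0.000262). Eif2d, which also acts in ribosome recycling, averaged 6.29 RPKM in IHCs and 6.26 RPKM in OHCs and did not pass (adjusted p = 0.923).

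The 4 eIF2 kinases phosphorylate eIF2 alpha under stress of different kinds. Eif2ak3, which encodes PERK, the sensor of unfolded proteins in the endoplasmic reticulum, was at 1.94 and 1.52 RPKM in IHCs and 2.49, 2.33 and 2.68 RPKM in OHCs (-0.52, SE 0.13, adjusted p = 0.0139). Eif2ak4, which encodes GCN2, the sensor of uncharged tRNA, was at 2.12 and 2.05 RPKM in IHCs and 1.55, 1.67 and 1.63 RPKM in OHCs (0.35, SE 0.09, adjusted p = 0.0143). Both calls depended on a single library: that of Eif2ak3 was lost without IHC replicate 2 (adjusted p = 0.0624) and that of Eif2ak4 without IHC replicate 1 (adjusted p = 0.0705) and with libraries rescaled to the same sum (adjusted p = 0.0570). Eif2ak1, for the haem-regulated kinase, was the most abundant, at 10.01 ± 0.689 RPKM in IHCs and 9.37 ± 0.234 RPKM in OHCs, and Eif2ak2, for the kinase that senses double-stranded RNA, was at 0.796 ± 0.0691 RPKM in IHCs and 0.720 ± 0.0713 RPKM in OHCs. Neither passed the test.

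Genes that act on eIF2 phosphorylation or are read from it were taken as a list of 14, of which 13 were in the table and 12 were tested. Of these 2 (16.7%) were higher in IHCs, 3 (25.0%) were higher in OHCs and 7 did not pass, with a median log2 difference of 0.07, while 34.4% of all genes passed in each direction. Ppp1r15a, which encodes GADD34, the stress-induced subunit of the phosphatase that reverses eIF2 phosphorylation, was at 93.6 and 93.7 RPKM in IHCs, and at 200, 203 and 200 RPKM in OHCs (-1.10, SE 0.02, adjusted p = 1.23e-06). Sesn2 averaged 0.261 ± 0.0890 RPKM in IHCs and 1.60 ± 0.0777 RPKM in OHCs, and Atf3 was listed at 0 in both IHC libraries and at 0.463 to 0.664 RPKM in OHC libraries. Asns, the asparagine synthetase gene, went the other way, with 37.2 and 39.5 RPKM in IHCs and 18.4, 16.6 and 17.4 RPKM in OHCs (1.13, SE 0.05). Atf4 and Ddit3, the genes of the main transcription factors of this response, did not pass: Atf4 averaged 24.0 RPKM in IHCs and 25.2 RPKM in OHCs, and Ddit3 averaged 17.5 RPKM in both.

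eIF3 is the largest initiation factor, a scaffold of many subunits. Of its 14 genes 10 (71.4%) were higher in IHCs, 2 (14.3%) were higher in OHCs and 2 did not pass, with a median log2 difference of 0.33. Among all genes tested 34.4% passed in each direction. All eIF3 genes except Eif3j1 and Eif3j2 averaged at least 10 RPKM, a level at which 52.3% of all genes passed towards IHCs and 29.1% towards OHCs. Eif3f stood apart. It was at 50.9 and 49.9 RPKM in IHCs, and at 24.5, 24.5 and 23.0 RPKM in OHCs, a log2 difference of 1.07 (SE 0.04, adjusted p = 7.56e-06). The other 9 genes higher in IHCs, Eif3a, Eif3d, Eif3e, Eif3g, Eif3h, Eif3i, Eif3k, Eif3l and Eif3m, differed by 0.23 (Eif3h) to 0.44 (Eif3i), and Eif3h did not pass under quantile normalization or without mitochondrial genes (0.07 and 0.09). The subunit genes Eif3b and Eif3c were higher in OHCs. Eif3b was at 75.9 and 70.1 RPKM in IHCs and 83.6, 84.8 and 81.5 RPKM in OHCs (-0.19, SE 0.04), and Eif3c averaged 22.3 ± 0.658 RPKM in IHCs and 26.1 ± 0.701 RPKM in OHCs (-0.23, SE 0.04).

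The make-up of the eIF3 mRNAs within a library, which does not depend on how libraries are scaled, shows the same 3 genes. Over 12 genes, leaving out Eif3j1 and Eif3j2, Eif3f took 9.58% and 9.47% of the summed RPKM in IHCs and 5.54%, 5.58% and 5.30% in OHCs. Eif3b took 14.3% and 13.3% in IHCs and 18.9%, 19.4% and 18.7% in OHCs, and Eif3c took 4.28% and 4.14% in IHCs and 5.72%, 6.08% and 6.04% in OHCs. Eif3f shared only 0.346% of its words with other genes and Eif3b 0.990%, while Eif3c shared 10.5%. Eif3g averaged 78.3 ± 0.583 RPKM in IHCs and 64.5 ± 2.03 RPKM in OHCs, and was the most abundant subunit gene in IHCs, while Eif3b was the most abundant in OHCs.

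**Figure D3:**
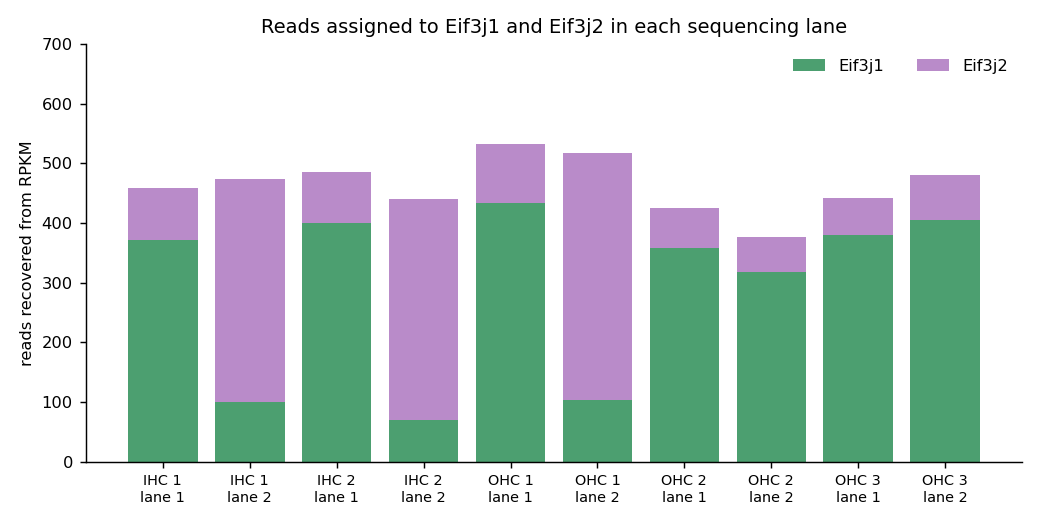
Reads assigned to Eif3j1 (green) and Eif3j2 (purple, stacked on top) in each of the 10 lanes, recovered from RPKM. Eif3j2 takes 14.03% to 18.95% of the reads in 7 lanes and 78.9% to 84.1% in the second lanes of IHC replicates 1 and 2 and OHC replicate 1, while the summed height stays between 377 and 533 reads.

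Eif3j1 and Eif3j2, near-identical copies of the gene for the loosely bound j subunit, could not be read one by one. Eif3j2 shared 94.9% of its 31-base words with other genes and Eif3j1 53.6%, each mainly with the other. Lanes of the same library disagreed on which copy the reads belonged to. In IHC replicate 1 the first lane had 372 reads on Eif3j1 and 87 on Eif3j2, and the second lane 100 and 373. The same swap occurred in IHC replicate 2 and OHC replicate 1 and not in OHC replicates 2 and 3. Since 2 of the 3 swapped lanes belong to IHCs, an average over lanes gives Eif3j2 at 8.68 and 9.40 RPKM in IHCs and 9.36, 2.52 and 2.88 RPKM in OHCs, and without OHC replicate 1 it passed the test with a log2 difference of 1.71. The copies summed had 41.9 and 45.4 reads for every 1000000 mapped reads in IHCs, and 45.5, 38.2 and 46.1 in OHCs, 1.01-fold (exact two-sided permutation test, p = 1). Lanes of 63 other members were compared in those libraries where both lanes had at least 20 reads, and the largest difference was 1.55-fold. Lanes with fewer reads were left out of this comparison.

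**Figure D4:**
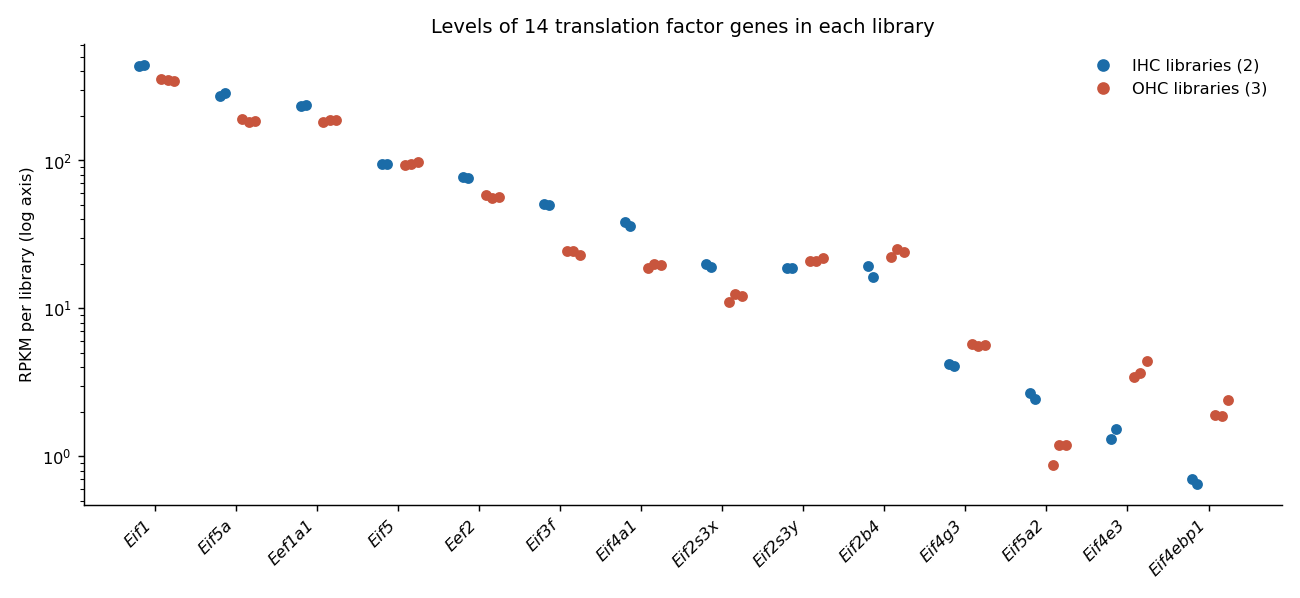
RPKM of 14 translation factor genes in each library (log axis), with the 2 IHC libraries in blue on the left of each gene and the 3 OHC libraries in red on its right. For Eif5 the libraries overlap. Eif2s3y, Eif2b4, Eif4g3, Eif4e3 and Eif4ebp1 are lower in IHCs, and the remaining 8 are higher.

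The eIF4 group brings the ribosome to the cap, and its genes differed in both directions. Of 15 genes tested 6 (40.0%) were higher in IHCs, 5 (33.3%) were higher in OHCs and 4 did not pass, with a median log2 difference of 0.12, and these shares were near the 34.4% of all genes in each direction. The helicase genes led the IHC side. Eif4a1 was at 38.4 and 36.1 RPKM in IHCs, and at 18.7, 19.8 and 19.6 RPKM in OHCs (0.94, SE 0.04, adjusted p = 1.85e-05). Its close relative Eif4a2 was at 58.7 and 59.6 RPKM in IHCs, and at 38.9, 38.4 and 40.8 RPKM in OHCs (0.59, SE 0.04). Eif4a2 was the more abundant of the pair in every library, with a ratio to Eif4a1 of 1.53 and 1.65 in IHCs and 2.08, 1.93 and 2.08 in OHCs. Eif4a3, whose product sits in the exon junction complex, averaged 43.1 ± 0.705 RPKM in IHCs and 39.6 ± 0.744 RPKM in OHCs. Its log2 difference of 0.12 turned to -0.0537 under quantile normalization and to -0.0304 after rescaling without mitochondrial genes, neither of them past the test, and without IHC replicate 1, IHC replicate 2 or OHC replicate 2 it did not pass either.

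Eif4e, the gene of the main cap-binding protein, was at 54.3 and 53.2 RPKM in IHCs, and at 34.5, 36.0 and 37.3 RPKM in OHCs (0.58, SE 0.04, adjusted p = 8.41e-05). Eif4e3, an atypical relative that binds the cap, was at 1.30 and 1.52 RPKM in IHCs, and at 3.41, 3.63 and 4.37 RPKM in OHCs (-1.36, SE 0.13, adjusted p = 0.000307). Eif4e2, which encodes the cap-binding repressor 4EHP, averaged 6.27 ± 0.0265 RPKM in IHCs and 6.73 ± 0.590 RPKM in OHCs and did not pass. Without OHC replicate 2 it was lower in IHCs by the test (-0.17, adjusted p = 0.0485). Eif4e thus made up 87.7% and 87.2% of the mRNA of the 3 genes in IHCs and 76.7%, 78.8% and 76.5% in OHCs, and Eif4e3 made up 2.11% and 2.50% in IHCs and 7.58%, 7.96% and 8.96% in OHCs. Eif4e1b, known from oocytes, had 0 reads in all 5 libraries, where 3 reads would be 0.0576 to 0.0666 RPKM.

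The binding proteins of eIF4E differed by gene. Eif4ebp1, which encodes 4E-BP1, the classical substrate of mTORC1, was at 0.696 and 0.648 RPKM in IHCs, and at 1.91, 1.86 and 2.41 RPKM in OHCs (-1.48, SE 0.14, adjusted p = 0.000302). Eif4ebp2, which encodes the form best known from brain, averaged 1.67 ± 0.326 RPKM in IHCs and 1.88 ± 0.188 RPKM in OHCs, and did not pass. The ratio of Eif4ebp2 to Eif4ebp1 was 2.06 and 2.93 in IHCs and 0.963, 1.12 and 0.708 in OHCs. Eif4ebp3 had 7 and 0 reads in IHCs and 0, 3 and 3 reads in OHCs, too few to compare. Eif4enif1, for the protein that carries eIF4E into the nucleus, was at 8.003 and 8.005 RPKM in IHCs, and at 10.2, 10.3 and 10.3 RPKM in OHCs (-0.35, SE 0.04).

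The scaffold genes of the cap complex split as well. Eif4g1 averaged 7.20 ± 0.158 RPKM in IHCs and 6.59 ± 0.182 RPKM in OHCs, without overlap but also without passing the test (0.13, adjusted p = 0.0707). Eif4g3 was at 4.18 and 4.07 RPKM in IHCs, and at 5.76, 5.57 and 5.69 RPKM in OHCs (-0.45, SE 0.05, adjusted p = 0.000716). Eif4g2, whose product lacks the part that binds eIF4E, was at 47.1 and 45.9 RPKM in IHCs and 35.01, 36.69 and 39.21 RPKM in OHCs (0.33, SE 0.05). The ratio of Eif4g3 to Eif4g1 was 0.572 and 0.574 in IHCs and 0.888, 0.818 and 0.877 in OHCs. Of the genes for helpers of the helicase, Eif4h was higher in IHCs (95.0 ± 1.12 RPKM, against 81.6 ± 1.31 RPKM in OHCs) and Eif4b was higher in OHCs (9.76 ± 0.186 RPKM in IHCs, against 10.7 ± 0.0573 RPKM in OHCs). Under quantile normalization the log2 differences of Eif4g2 and Eif4h were 0.17 and 0.03 and did not pass (adjusted p = 0.0518 and 0.313), and that of Eif4h did not pass after rescaling without mitochondrial genes either (0.07, adjusted p = 0.0647). The call of Eif4b was lost without each of the libraries except OHC replicate 1.

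Genes of mTORC1 and its links to eIF4E were taken as a list of 25, of which 23 were in the table and tested. Of these 8 (34.8%) were higher in IHCs, 9 (39.1%) were higher in OHCs and 6 did not pass, with a median log2 difference of 0.01. Both shares were near the 34.4% of all genes in each direction. Mknk2, which encodes a kinase that phosphorylates eIF4E, was at 0.774 and 1.01 RPKM in IHCs, and at 2.54, 2.36 and 2.43 RPKM in OHCs (-1.37, SE 0.13). Sesn1, whose product restrains mTORC1, was at 7.43 and 7.51 RPKM in IHCs, and at 18.6, 17.1 and 19.1 RPKM in OHCs (-1.28, SE 0.06). Deptor, for an inhibitor that binds mTOR, averaged 0.0970 ± 0.0276 RPKM in IHCs and 0.257 ± 0.0626 RPKM in OHCs (-0.85, SE 0.23). Rps6kb1, for the S6 kinase downstream of mTORC1, averaged 3.80 ± 0.182 RPKM in IHCs and 6.48 ± 0.342 RPKM in OHCs (-0.76). On the IHC side stood Nprl2, with 66.3 ± 0.144 RPKM in IHCs and 44.4 ± 0.204 RPKM in OHCs, and 4 of the 5 Lamtor genes, whose products anchor the complex to the lysosome, by 0.31 to 0.43 on the log2 scale.

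Initiation cofactors outside the named families, a list of 19, numbered 10 higher in IHCs (52.6%), 4 higher in OHCs (21.1%) and 5 not past the test, with a median of 0.26, beside 34.4% of all genes in each direction. Part of the list reached 10 RPKM, and of all genes at that level 52.3% passed towards IHCs and 29.1% towards OHCs. Bzw1, which encodes an eIF5 mimic that makes start codon choice stricter, was at 167 and 168 RPKM in IHCs, and at 66.0, 68.5 and 69.5 RPKM in OHCs (1.30, SE 0.03, adjusted p = 1.74e-06). Its relative Bzw2 averaged 8.39 RPKM in IHCs and 8.48 RPKM in OHCs and did not pass. Cyfip1, whose product binds eIF4E together with the fragile X protein, averaged 4.33 ± 0.142 RPKM in IHCs and 2.35 ± 0.0526 RPKM in OHCs (0.85), and Pabpc4, for a poly(A)-binding protein, averaged 0.860 ± 0.0945 RPKM in IHCs and 1.58 ± 0.114 RPKM in OHCs (-0.81).

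**Figure D5:**
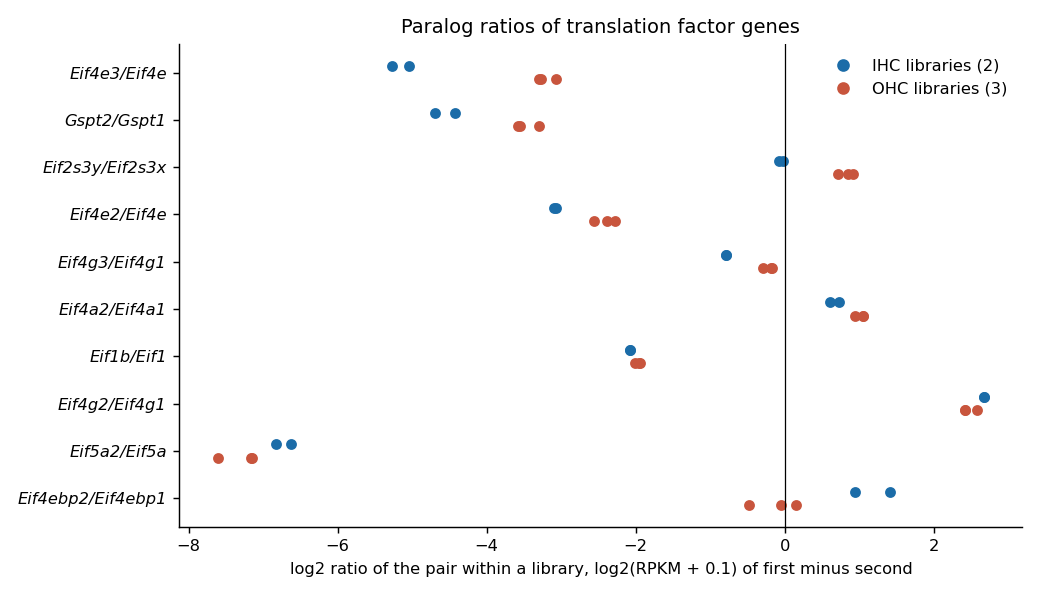
Log2 ratio of 10 pairs of related genes within each library, on the log2(RPKM + 0.1) scale, with the 2 IHC libraries in blue above the 3 OHC libraries in red. For Eif4g2/Eif4g1 the exact p was 0.2, and for the other 9 pairs it was the smallest possible, 0.1; the widest gap is that of Eif4e3/Eif4e, -1.94.

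Ratios of related genes within a library are free of library scaling, and 11 pairs were compared by an exact two-sided permutation test over the 5 libraries. With 2 libraries against 3 the smallest possible p is 0.1, so no pair can pass 0.05. In the exact test all pairs except Eif4g2/Eif4g1 reached that limit (exact p = 0.1, adjusted 0.11), and Eif4g2/Eif4g1 gave an exact p of 0.2. The largest log2 differences of a ratio, IHC minus OHC, were -1.94 for Eif4e3/Eif4e, 1.31 for Eif4ebp2/Eif4ebp1, -1.08 for Gspt2/Gspt1 and -0.88 for Eif2s3y/Eif2s3x. The smallest in size was -0.11 for Eif1b/Eif1. The pair Eef1a2/Eef1a1 gave -0.87, but Eef1a2 was at the floor in every library.

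eIF5A relieves ribosomes that stall at difficult peptide bonds and carries hypusine, an amino acid found in no other protein. Eif5a was at 273 and 285 RPKM in IHCs, and at 189, 183 and 184 RPKM in OHCs (0.59, SE 0.03, adjusted p = 2.59e-05), and ranked 205 among all genes tested. Eif5a2, the second gene of the family, was at 2.66 and 2.42 RPKM in IHCs, and at 0.870, 1.18 and 1.19 RPKM in OHCs (1.17, SE 0.16, adjusted p = 0.00123). It remained far below Eif5a in every library, with a ratio of 0.00974 and 0.00850 in IHCs and 0.00460, 0.00647 and 0.00648 in OHCs. Both enzymes that make hypusine were higher in IHCs: Dhps averaged 22.7 ± 0.770 RPKM in IHCs and 17.9 ± 0.784 RPKM in OHCs, and Dohh averaged 25.9 ± 0.417 RPKM in IHCs and 18.1 ± 0.339 RPKM in OHCs.

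The eEF1 group delivers tRNAs to the ribosome. Eef1a1, the carrier itself, was at 233 and 237 RPKM in IHCs, and at 181, 187 and 187 RPKM in OHCs (0.35, SE 0.03, adjusted p = 0.000132), and ranked 226. Eef1a2, the form that replaces it in adult muscle and neurons, had 0 and 1 reads in the IHC libraries, and 2, 3 and 3 reads in the OHC libraries, where 3 reads correspond to 0.0624 to 0.0720 RPKM. It was not tested, and a difference in it could not be seen at this depth. The exchange factor of eEF1A has 3 subunits, of which Eef1b2 and Eef1g were higher in IHCs and Eef1d was lower. Eef1b2 was at 32.6 and 30.8 RPKM in IHCs and 18.3, 19.8 and 20.3 RPKM in OHCs (0.70, SE 0.05), and Eef1g at 57.2 and 58.0 RPKM in IHCs and 39.2, 37.9 and 38.9 RPKM in OHCs (0.57, SE 0.03). Eef1d was at 10.03 and 10.22 RPKM in IHCs and 11.2, 11.3 and 11.3 RPKM in OHCs (-0.15, SE 0.04). It took 10.1% and 10.3% of the mRNA of the 3 subunits in IHCs and 16.3%, 16.4% and 16.1% in OHCs, although its call was lost without either IHC library (adjusted p = 0.0829 and 0.0528). Eef1e1, for a protein of the tRNA synthetase complex, averaged 24.4 ± 1.77 RPKM in IHCs and 23.5 ± 0.800 RPKM in OHCs and did not pass.

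Eef2, which moves the ribosome along the mRNA, was at 77.9 and 76.4 RPKM in IHCs, and at 58.6, 56.1 and 56.4 RPKM in OHCs (0.43, SE 0.03, adjusted p = 9.29e-05). The gene of its inhibitory kinase, Eef2k, which calcium and calmodulin activate, was at 1.88 and 1.91 RPKM in IHCs, and at 0.878, 0.822 and 1.21 RPKM in OHCs (0.92, SE 0.18, adjusted p = 0.00489). Both genes for methyltransferases were higher in IHCs. Eef2kmt, for the enzyme that methylates eEF2, was at 7.04 and 7.84 RPKM in IHCs and 4.43, 3.99 and 4.57 RPKM in OHCs (0.77, SE 0.08), and Eef1akmt1, for an enzyme that methylates eEF1A, was at 43.1 and 44.8 RPKM in IHCs and 29.9, 31.1 and 27.3 RPKM in OHCs (0.58, SE 0.06).

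The list of 9 enzymes of hypusine and of diphthamide, the modified histidine of eEF2, held 6 genes higher in IHCs (66.7%), 2 higher in OHCs (22.2%) and 1 that did not pass, with a median of 0.33, beside 34.4% of all genes in each direction. At 10 RPKM or more, a level that part of this list reached, 52.3% of all genes passed towards IHCs and 29.1% towards OHCs. Besides Dhps and Dohh, Dnajc24 was at 14.7 and 15.7 RPKM in IHCs and 9.15, 10.02 and 10.05 RPKM in OHCs (0.64, SE 0.06), and Dph6 averaged 5.66 ± 0.0158 RPKM in IHCs and 3.69 ± 0.102 RPKM in OHCs (0.60). Dph2, a subunit of the first enzyme of the pathway, went the other way, with 2.39 and 2.54 RPKM in IHCs and 5.20, 4.20 and 4.08 RPKM in OHCs (-0.83, SE 0.12). These enzymes thus did not share 1 direction.

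Translation ends when eRF1 (Etf1) reads the stop codon with the GTPase eRF3, which Gspt1 and its retrogene Gspt2 encode. Gspt1 averaged 7.86 ± 0.0375 RPKM in IHCs and 6.35 ± 0.260 RPKM in OHCs (0.30, SE 0.05, adjusted p = 0.00365), and after rescaling without mitochondrial genes it did not pass (0.16, adjusted p = 0.0504). Gspt2 was at 0.273 and 0.208 RPKM in IHCs, and at 0.435, 0.466 and 0.543 RPKM in OHCs (-0.77, SE 0.18, adjusted p = 0.00972), and without IHC replicate 2 it did not pass (adjusted p = 0.0731). Etf1 averaged 13.0 ± 0.789 RPKM in IHCs and 11.4 ± 0.302 RPKM in OHCs (0.18, SE 0.05, adjusted p = 0.0279). Without IHC replicate 1 the log2 difference of Etf1 was 0.11. Its call was lost without OHC replicate 1 or OHC replicate 3, with adjusted p-values of 0.0548 and 0.0715. The call was also lost with libraries rescaled to the same sum, after rescaling without mitochondrial genes and under quantile normalization (log2 differences 0.03 to 0.12). A list of 12 genes of release, recycling and ribosome rescue, 11 of them tested, had 3 higher in IHCs and 3 higher in OHCs (27.3% each) and 5 not past the test, with a median of -0.18, beside 34.4% of all genes in each direction. Pelo, which encodes the rescue factor related to eRF1, averaged 3.21 ± 0.0286 RPKM in IHCs and 2.08 ± 0.180 RPKM in OHCs (0.61). Its GTPase partner Hbs1l averaged 21.9 ± 0.725 RPKM in IHCs and 16.3 ± 0.994 RPKM in OHCs (0.42). Gtpbp1, a further GTPase of stalled ribosomes, averaged 13.9 ± 0.240 RPKM in IHCs and 20.5 ± 0.684 RPKM in OHCs (-0.56), and Hemk1 averaged 1.18 ± 0.0820 RPKM in IHCs and 1.84 ± 0.258 RPKM in OHCs (-0.60).

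Eif1a and Eif2c5 remain. Eif1a, the autosomal gene for eIF1A, averaged 24.4 ± 0.312 RPKM in IHCs and 20.2 ± 0.702 RPKM in OHCs (0.28, SE 0.04). Eif2c5 bears the older name of the Argonaute family and is annotated as a noncoding gene, and it had 0 reads in all libraries, where 3 reads would be 0.0918 to 0.106 RPKM. In all, 8 of the 54 calls did not pass when some single library was left out, those of Eef1d, Eif2ak3, Eif2ak4, Eif2b2, Eif4a3, Eif4b, Etf1 and Gspt2, and 46 passed in each of these 5 fits. The p-values measure the spread between these 5 libraries only.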

How the data were processed

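RNA of about 1000 picked cells per library was amplified to cDNA and sequenced in paired-end reads. The authors mapped the reads to mouse GRCm38 and deposited RPKM per gene for each technical replicate, called a lane here. The version of the mapping software was not given in the sources used here. The kit for RNA extraction and the kit for cDNA are named differently in the labels and in the methods, and the methods give a wider range of ages than the labels, whose ages are used here. The 2 lanes of a library were averaged, giving 2 IHC and 3 OHC libraries. Genes that reached 0.1 RPKM in 2 or more libraries were tested on log2(RPKM + 0.1) with limma 3.58.1 in R 4.3.3 (variance trend on, two-sided, Benjamini-Hochberg over 16462 genes, threshold 0.05, 3 residual degrees of freedom), checked on simulated data. A fold change on this scale understates the change of low genes. Ratios of related genes were compared by exact permutation in Python 3.11.15. Reads were recovered as RPKM × length × lane total, with the annotated length or, for 23 members, another length that gave whole reads within 0.001. About 70% of all values of a lane came out whole within 0.01 (69.8% to 70.6%) with the annotated lengths, so no count test was run. Lane totals were 9932733 to 11571938 reads. A floor of 3 reads per library marks what could not be seen, and intervals from it cover counting error only. Shared sequence was counted as 31-base words in GENCODE transcripts, and start windows came from RefSeq. The members, the gene lists and the marker lists were chosen with earlier results of these data known. Within each role the most abundant member, up to 4 called members with the largest differences, related pairs and undetected members were described first. From each gene list up to 3 called members with the largest differences were to be named, and Ppp1r15a, Atf4, Ddit3, Rps6kb1, Nprl2, the Lamtor genes, Bzw2, Dhps, Dohh and Hbs1l were added after their values were seen. Whether same-numbered replicates deviated together could not be decided, because the deviations of 2 IHC libraries from their mean are mirror images. The identity of related proteins was not analysed here.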

Additional observations from a re-analysis of the deposited data

How the results depend on the processing

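No call of a member passed in the opposite direction under any alternative run, and 40 of the 54 calls passed in all of them. The number of members higher in IHCs and in OHCs was 36 and 14 with libraries rescaled to the same sum, 32 and 16 after rescaling without mitochondrial genes, and 33 and 14 after quantile normalization. In the same order, the shares of all genes tested were 29.0% and 39.1%, 27.3% and 40.8%, and 33.5% and 32.5%. The 2 rescalings moved the median of all genes to -0.11 and -0.14 (log2). They divide all genes of a library by the same factor, so the gap between the members' median and that of all genes could hardly change. This gap was 0.28 in both, against 0.29 in RPKM. Under quantile normalization, which does not use a single factor, the members' median lay 0.16 above that of all genes. Leaving out 1 library gave 37 to 41 members higher in IHCs and 9 to 14 higher in OHCs. With the replicate number as a block 39 and 10 members passed, and 5060 and 4985 of all genes. The log2 difference of Eif4a3 became -0.0537 under quantile normalization and -0.0304 without mitochondrial genes. The cause of these changes was not tested. Restrictions chosen after seeing the data left 23 members higher in IHCs of 41 with little shared sequence, 6 higher in OHCs of 43 at 10 RPKM or more, and 7 in each direction of 23 below it. Genes of the eIF2 stress list higher in IHCs numbered 1 after rescaling without mitochondrial genes and 2 to 4 when 1 library was left out (4 without OHC replicate 1). Genes of the mTORC1 list higher in IHCs numbered 5 with libraries rescaled to the same sum, without mitochondrial genes, with the second lane only and with the replicate block, and genes of the release list higher in OHCs numbered 5 under the first 2 of these. With 2 and 3 libraries, members under about 1 RPKM had too few reads for small differences to be seen.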
